A study of Mus musculus with 2 samples.

Results

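CC chemokines are small secreted proteins that direct leukocytes along a gradient. Here 10 of them were examined in polysomal RNA of wild-type macrophages and of macrophages that lacked the interferon-induced protein OASL1. These were Ccl2, Ccl3, Ccl4, Ccl5, Ccl6, Ccl7, Ccl8, Ccl9, Ccl12 and Ccl22. They were picked by gene symbol from a list of names, by a rule that uses no difference between the genotypes, though the list was proposed with earlier results of these data known. They are 10 of the 22088 genes that the array annotation names. Each was covered by 1 probe set, of 24 to 30 probes.

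Macrophages were derived from bone marrow of wild-type and Oasl1-/- C57BL/6J mice, with 1 array each. Marrow cells had been grown for 7 days with 20% L929 culture supernatant, which supplies the growth factor that macrophages need. Both genotypes were treated for 12 h with 10 µg/ml of poly(I:C), an artificial RNA duplex that cells sense as viral. Lysates were spread on a sucrose gradient of 10% to 50%, and RNA of fractions 9 to 11 out of 16, which carry mRNAs loaded with several ribosomes, was hybridised to Affymetrix Mouse Gene 1.0 ST arrays. No untreated cells and no total RNA were analysed here, so neither induction by poly(I:C) nor the share of each mRNA on polysomes can be read from these values. The labels do not say which part of Oasl1 is deleted, nor how many mice gave cells. With 1 array per genotype there is no spread between replicates, no difference below has a test, and no p-value is given.

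Chemokines of this family have a pair of neighbouring cysteines near the amino end of the protein and act on receptors of the CCR type. Macrophages that sense viral RNA switch on many of them through NF-kB and interferon regulatory factors, and the products bring monocytes, T cells and NK cells to infected tissue. OASL1 is an interferon-induced protein known to hold back translation of Irf7, a transcription factor through which interferon production feeds on itself. The arrays ask which polysomal mRNAs differ when OASL1 is missing.

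Values are log2 signals as the authors deposited them, and a difference is always Oasl1-/- minus wild-type. A gene was counted when the higher of its 2 signals reached a floor of 7. Probe sets placed in introns serve as a measure of background, and their central 95% ended at 7.13 in wild-type and at 7.34 in Oasl1-/-, near this floor. It left 7835 genes, whose median difference was -0.09 with a spread of 0.32 (SD estimated from the median absolute deviation). That spread holds real and technical differences between these arrays alike and is no replicate error. Oasl1 itself read 10.70 in wild-type and 9.14 in Oasl1-/-, and Irf7 read 10.14 and 11.47. All 9 macrophage markers were past the floor on both arrays, from 8.40 to 12.78, with differences of -0.03 to 0.59. Of the 42 markers of 8 other cell types only Csf3r, listed for neutrophils, was past it, at 6.62 and 7.73, while the defining neutrophil genes S100a8, S100a9, Ly6g, Mpo and Elane stayed at or below 5.80. The part of these markers in the results below was not tested, and fewer cells of a type cannot be told apart from less RNA per cell.

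Most CC chemokine mRNAs had a higher polysomal signal without OASL1. Of the 10 members 9 were past the floor, where 7835 of all 22088 genes were, and all 9 were above it on both arrays. Among them 8 were higher in the Oasl1-/- array and 1, Ccl6, was lower. By any amount 39.1% of all genes past the floor were higher and 60.6% lower. The differences ran from -0.51 for Ccl6 to 1.11 for Ccl5, with a median of 0.65 against -0.09 for all genes past the floor. At 1.5-fold 6 members were higher, namely Ccl2, Ccl3, Ccl4, Ccl5, Ccl8 and Ccl12, where 5.27% of all genes past the floor were. None was lower by that much, where 6.28% of all genes were. At 2-fold only Ccl5 was higher, where 1.57% of all genes past the floor were, and no member was lower, where 0.651% of all genes were.

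**Figure D1:**
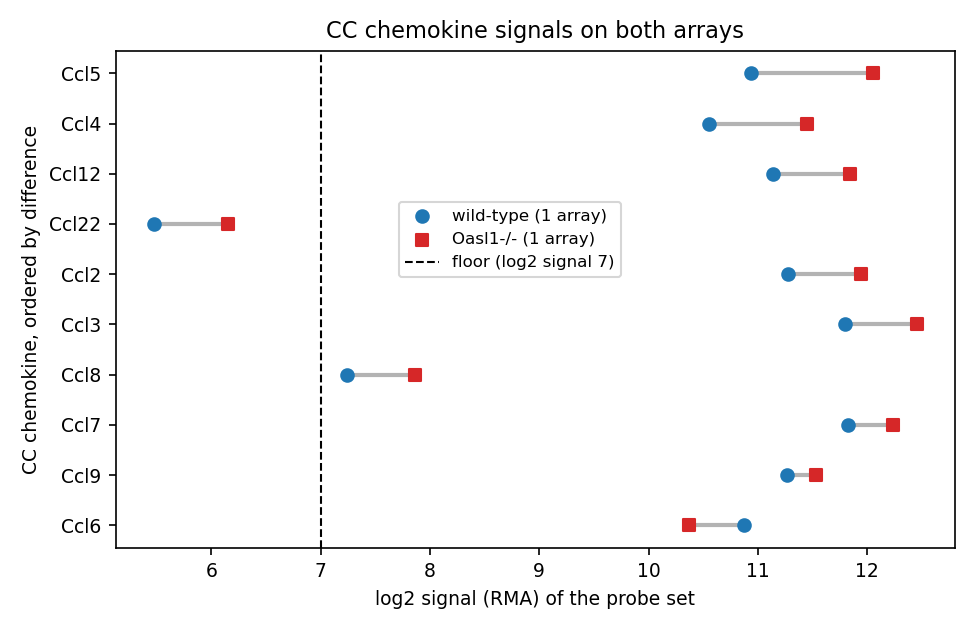
Log2 signal (horizontal axis) of the 10 CC chemokines in the wild-type array (blue circles) and the Oasl1-/- array (red squares), ordered by their difference, with the floor of 7 as a dashed line. The Oasl1-/- signal lies to the right in every row but that of Ccl6, and Ccl22 lies left of the floor on both arrays.

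Ligands of CCR2, the receptor that draws inflammatory monocytes out of the marrow and into tissue, were higher without OASL1. Ccl2, the main monocyte attractant of this group, read 11.27 in wild-type and 11.94 in Oasl1-/-. The difference of 0.67 is 1.59-fold, and 3.82% of the genes past the floor had a higher one. Ccl12, a mouse CCR2 ligand close to Ccl2, read 11.14 and 11.84. Its difference of 0.70, or 1.63-fold, was close to that of Ccl2. Ccl7, which also acts on CCR2, read 11.83 and 12.24, a smaller difference of 0.41, or 1.33-fold. Within this group Ccl7 thus stood lowest, though above the median gene, and 10.1% of genes past the floor had a higher difference.

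Ccl8 belongs to this group by sequence but in the mouse acts on CCR8, a receptor of T helper cells. It read 7.24 in wild-type and 7.87 in Oasl1-/-, a difference of 0.63, or 1.54-fold. On the wild-type array it was 0.12 above the upper end of the intron controls, and on the Oasl1-/- array 0.53 above it. It was the only member past the floor that close to background, so the size of its difference is the least certain of the 9. With a pseudocount of 32 added to the linear signal it was 0.53, under 1.5-fold. It was 0.71 after centring on the median gene, 0.73 on quantile-normalized signals and 0.76 with the loess trend taken out.

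These 4 genes lie side by side on chromosome 11 (build NCBIM37), all on the plus strand, in a block of 81.2 kb. Ccl2 spans 81849076 to 81850954, Ccl7 spans 81859216 to 81861027, Ccl12 spans 81915347 to 81916905 and Ccl8 spans 81928694 to 81930297. Within the block, between Ccl7 and Ccl12, sits Ccl11, an attractant of eosinophils, which was below the floor at 5.30 and 5.36. Outside it, 59.9 kb beyond Ccl8, sits Ccl1, also below it at 4.71 and 4.39. Of the Ccl genes within the block Ccl11 was thus the only one not separable from background on both arrays.

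Upstream sequence is shown for Ccl12 and Ccl8, since on the deposited scale these neighbours differed by nearly the same amount from very unequal signals. With a pseudocount of 32 the differences were 0.70 for Ccl12 and 0.53 for Ccl8, which is near background. The RefSeq promoter table (GRCm38.p6) matched 6 of the 10 members by symbol, Ccl3, Ccl6, Ccl8, Ccl9, Ccl12 and Ccl22, and had no entry for Ccl2, Ccl4, Ccl5 and Ccl7. The 250 bases before the annotated start of Ccl12 are chr11:82101595-82101844 and those of Ccl8 are chr11:82114935-82115184, both on the plus strand. They are written 5′ to 3′, with matches to the motifs searched in capitals.
Ccl12: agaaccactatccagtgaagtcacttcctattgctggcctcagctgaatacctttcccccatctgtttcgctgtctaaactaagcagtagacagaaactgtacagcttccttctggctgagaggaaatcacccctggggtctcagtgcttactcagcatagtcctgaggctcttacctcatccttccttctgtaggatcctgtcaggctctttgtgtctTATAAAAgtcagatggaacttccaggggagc
Ccl8: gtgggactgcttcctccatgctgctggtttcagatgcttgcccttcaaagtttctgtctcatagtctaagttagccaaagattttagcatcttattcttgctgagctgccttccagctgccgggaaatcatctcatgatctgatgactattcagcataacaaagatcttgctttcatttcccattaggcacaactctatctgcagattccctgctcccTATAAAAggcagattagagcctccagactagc
In both sequences the only match was TATAAAA, the core of a TATA box. It begins 31 bases before the start in Ccl12 and 32 bases before it in Ccl8. This motif was added after the sequences had been seen, and it occurs on either strand in 4.98% of 32851 promoter windows of this length. The motifs for NF-kB, interferon regulatory factors, AP-1 and STAT factors named further down had no match in these windows.

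Ccl5, Ccl4 and Ccl3, attractants of T cells, NK cells and macrophages, were higher too, and Ccl5 and Ccl4 had the largest differences of the members past the floor. Ccl5, which acts on CCR1 among other receptors and is an abundant product of virus-infected macrophages, read 10.94 in wild-type and 12.05 in Oasl1-/-. Its difference of 1.11, or 2.16-fold, was the only one of at least 2-fold among the members, and 1.19% of genes past the floor had a higher one. Among the 1580 genes whose mean signal was at least 10, a range that holds 8 of the members, 1.14% were 2-fold higher and 0.823% had a higher difference than Ccl5. In that range 5 of the 8 members were at least 1.5-fold higher, where 6.01% of the genes were. Ccl4, which is released together with Ccl3, read 10.55 and 11.45, a difference of 0.90, or 1.86-fold. Ccl3, which acts on CCR1 among other receptors, read 11.80 and 12.45, a difference of 0.65, or 1.57-fold. Only 0.957% of genes past the floor were brighter than Ccl3 on the Oasl1-/- array, and how far such bright probe sets compress a difference was not tested.

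Ccl6 and Ccl9, both CCR1 ligands found in rodents and made by cells of the myeloid lineage, had the lowest differences of the members past the floor, in opposite directions. Ccl6 read 10.88 in wild-type and 10.37 in Oasl1-/-, a difference of -0.51. This left 70.4% of the wild-type signal, and 9.01% of the genes past the floor had a lower difference. Among genes whose mean signal was at least 10, 96.6% had a higher difference than Ccl6. Ccl9 read 11.26 and 11.53, a difference of 0.26, or 1.20-fold. That is the smallest of the 8 higher members, smaller than the spread of 0.32 over all genes, and 16.8% of genes past the floor had a higher one. The deposited annotation gives the process terms chemotaxis and immune response to all 10 members and the term inflammatory response to 8, all but Ccl6 and Ccl9. The 7 members past the floor with that term had differences of 0.41 to 1.11, above both Ccl9 and Ccl6. This split was chosen after the values were seen.

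**Figure D2:**
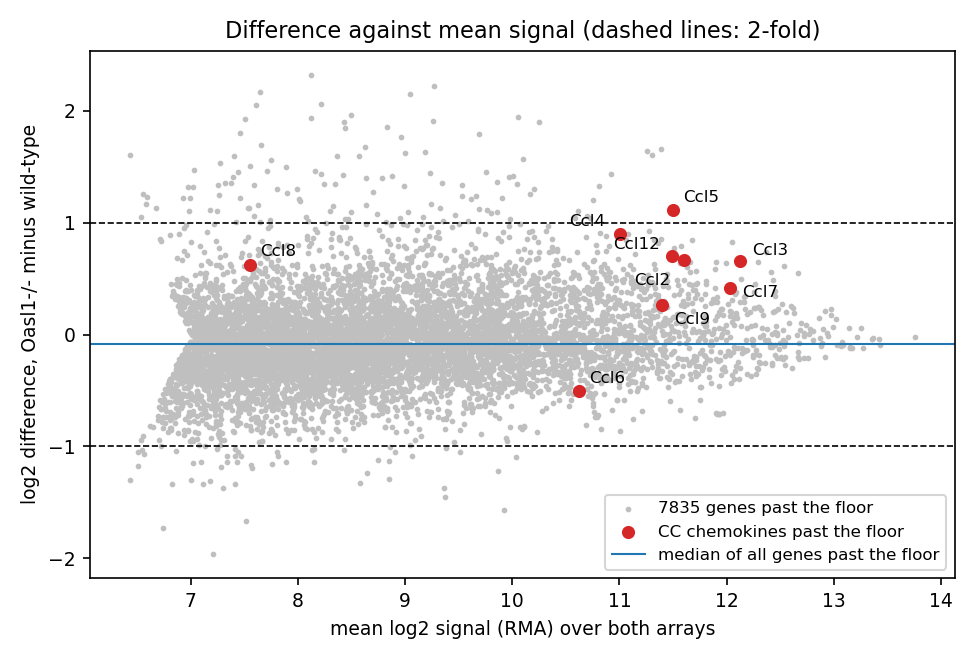
Difference, Oasl1-/- minus wild-type (vertical axis, log2), against mean log2 signal over both arrays (horizontal axis) for 7835 genes (grey) and the 9 CC chemokines past the floor (red). Ccl5 lies above the upper 2-fold line, 7 members lie between the median of all genes (-0.09, blue) and that line, and Ccl6 lies below the median.

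These 5 genes form another block of chromosome 11, 138.9 kb long and 1409 kb from the former. In chromosome order on build NCBIM37, Ccl5 spans 83339280 to 83344020, Ccl9 spans 83386419 to 83392138, Ccl6 spans 83401394 to 83406492 and Ccl3 spans 83461346 to 83462859, all on the minus strand. Ccl4 spans 83476089 to 83478182 on the plus strand. Ccl5, with the highest difference of the members past the floor, and Ccl6, with the lowest, are 57.4 kb apart and differed from each other by 1.62 on the log2 scale. Ccl6 and Ccl9, separated by 9.26 kb, differed in direction. In chromosome order the differences were 1.11 for Ccl5, 0.26 for Ccl9, -0.51 for Ccl6, 0.65 for Ccl3 and 0.90 for Ccl4, so the lowest pair were neighbours in the middle of the block. All 4 members of the former block were higher, by 0.41 to 0.70.

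**Figure D3:**
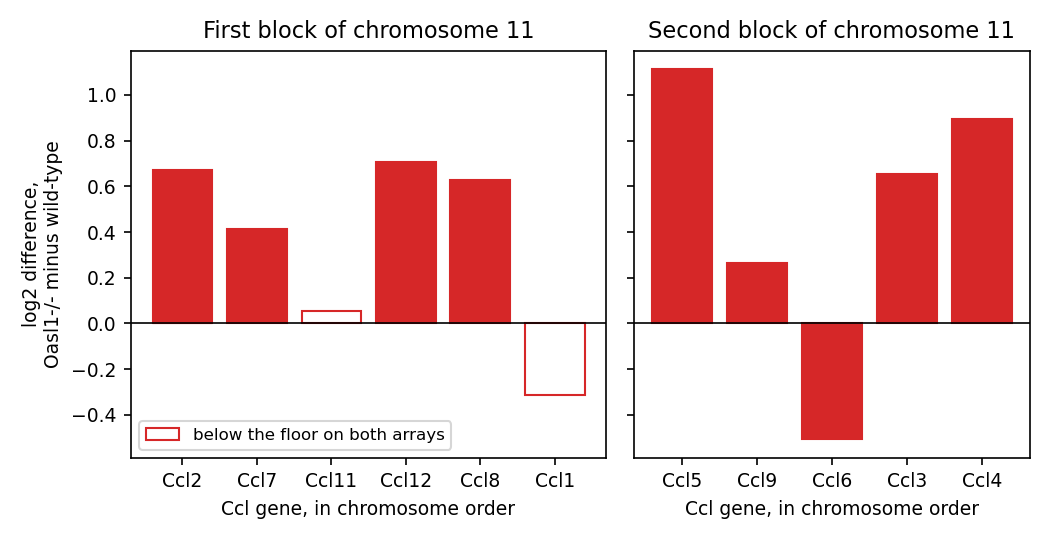
Difference, Oasl1-/- minus wild-type (vertical axis, log2), of the Ccl genes in each block of chromosome 11, and of Ccl1 next to the former, in chromosome order. Filled bars are members past the floor and open bars are Ccl11 and Ccl1, below the floor on both arrays; in the block on the right Ccl6 is the only bar below 0.

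Upstream windows of Ccl9, Ccl6 and Ccl3 are shown because these neighbours on 1 strand span both directions of difference. They are chr11:83578637-83578886, chr11:83593088-83593337 and chr11:83649379-83649628 (GRCm38.p6), on the minus strand, written 5′ to 3′ towards the start of the gene with motif matches in capitals.
Ccl9: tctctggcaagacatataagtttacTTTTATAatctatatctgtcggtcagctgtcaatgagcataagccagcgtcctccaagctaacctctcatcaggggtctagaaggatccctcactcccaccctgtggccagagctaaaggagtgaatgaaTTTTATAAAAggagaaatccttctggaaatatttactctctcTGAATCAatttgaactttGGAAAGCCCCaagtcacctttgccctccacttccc
Ccl6: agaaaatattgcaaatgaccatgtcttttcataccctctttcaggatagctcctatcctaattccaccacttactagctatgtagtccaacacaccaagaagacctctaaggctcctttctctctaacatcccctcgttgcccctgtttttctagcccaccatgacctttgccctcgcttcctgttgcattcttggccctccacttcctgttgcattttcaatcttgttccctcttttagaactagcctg
Ccl3: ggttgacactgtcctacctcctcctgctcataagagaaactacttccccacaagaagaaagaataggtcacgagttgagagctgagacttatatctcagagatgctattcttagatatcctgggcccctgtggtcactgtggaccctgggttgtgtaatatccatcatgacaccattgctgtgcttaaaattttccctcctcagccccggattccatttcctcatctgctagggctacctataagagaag
Ccl6 and Ccl9 share the run gccctccacttcc, the longest of any pair of the 6 member windows at 13 bases. It begins 55 bases before the start of Ccl6 and 14 bases before that of Ccl9. The longest runs of the other member pairs were 6 to 10 bases. Pairs of other promoters were not read, so how unusual such a run is was not tested. Ccl9 held TGAATCA, a match to the AP-1 motif TGANTCA, which 6.75% of promoter windows contain. It also held GGAAAGCCCC, a match on the other strand to the loose NF-kB motif of GGG, any 5 bases and CC, which 45.8% of windows contain and which the window of Ccl22, not shown, matches at 2 places. The remaining capitals in Ccl9 are TATAAAA on either strand, in matches that overlap at 1 place, and none of the motifs was found in Ccl6 or Ccl3. The strict NF-kB consensus in 2 forms (GGGAC or GGGAA, each followed by TTTCC), the interferon response motif (GAAA, any 2 bases, GAAA) and the STAT motif (TTC, any 3 bases, GAA) had no match in any of the 6 member windows. They occur in 0.14%, 0.0852%, 2.98% and 7.02% of all windows. All motifs were read on both strands, and absence of a match says only that these letters are not in this window.

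Ccl22, made by dendritic cells and activated macrophages to attract CCR4-bearing T cells, was below the floor. It lies on chromosome 8, 97269490 to 97275599, on the plus strand (NCBIM37), and read 5.47 in wild-type and 6.15 in Oasl1-/-. Relative to the upper end of the intron controls these values stood at -1.65 and -1.19, so its difference of 0.68 cannot be separated from background. Ccl17, a ligand of the same receptor, was also below the floor at 5.17 and 5.15.

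None of the 11 other Ccl genes that the annotation names reached the floor. Their signals were between 3.77 and 6.04. They include Ccl19 and Ccl21a, which guide cells in lymph nodes, and Ccl20, which acts on CCR6 and read 4.64 and 4.09. Ccl19 and Ccl21a each have near-identical copies in the genome, with 5 and 4 probe sets, several of which carry the same values, so they are uncertain. Of 21 Ccl genes on the array, 9 were thus past the floor, where 7835 of all 22088 genes were. All 9 are among the members, a list proposed with earlier results of these data known.

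The genes most like Ccl5 over the 2 log2 signals, by the smallest Euclidean distance among non-Ccl genes past the floor, were Fcgr4, Usp18 and Clec4e. Fcgr4, an activating receptor for IgG, lay 0.24 away with a difference of 0.77. Usp18, which removes ISG15 from proteins, lay 0.24 away with a difference of 0.86. Clec4e, a C-type lectin receptor, lay 0.25 away with a difference of 0.79. None of these was as high as Ccl5 in the Oasl1-/- array. Ccl6 had closer matches in Nedd8, a ubiquitin-like modifier, at 0.03, Pcnp at 0.05 and Ybx1, an mRNA-binding protein, at 0.07. With only 2 values per gene this likeness is a description of signal and difference and of nothing else.

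The listed genes of the CC chemokine receptor family, not all of which bind these ligands, were mostly below the floor. Of 15 receptor genes read 3 were past it, where 7835 of all 22088 genes were. Among the 3, 2 were higher and 1 lower in the Oasl1-/- array, with a median difference of 0.30. Over all genes past the floor 39.1% were higher and 60.6% lower. Ccrl2, a receptor-like protein that binds chemerin and does not signal like other CCR proteins, read 9.56 in wild-type and 10.86 in Oasl1-/-, a difference of 1.30, or 2.46-fold. It was the only one of these 3 receptor genes at least 2-fold higher and none was 2-fold lower, where 1.57% and 0.651% of all genes past the floor were. With so few genes these counts describe single genes only.

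The other receptors past the floor differed less. Ccr2, the receptor of Ccl2, Ccl7 and Ccl12, read 8.16 and 8.46, a difference of 0.30. Ccr1, the receptor of Ccl6 and Ccl9 and shared by Ccl3 and Ccl5, read 8.24 in wild-type and differed by -0.23. Both differences are smaller than the spread of 0.32 over all genes. The other 12, among them Ccr4, Ccr7 and Ccr8, stayed at or below 6.19.

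Genes that control the decay or translation of short-lived mRNAs were read because chemokine mRNAs are known targets of such control. Of 20 listed 18 were past the floor, where 7835 of all 22088 genes were. Of the 18, 2 were higher and 16 lower, where 39.1% of all genes past the floor were higher and 60.6% lower. Their median difference was -0.11, close to the -0.09 of all genes. The split was 8 higher and 10 lower after centring on the median gene, 4 and 14 with the loess trend taken out, 6 and 12 on quantile-normalized signals, and again 2 and 16 with a pseudocount of 32. None differed 2-fold in either direction, near what the shares of all genes past the floor, 1.57% higher and 0.651% lower, give for so few. Zfp36, which binds AU-rich elements and speeds decay of Tnf and several chemokine mRNAs, differed most, at 7.49 in wild-type and 8.15 in Oasl1-/-, a difference of 0.66. Its relative Zfp36l1 stood opposite at 7.17 and 6.83, a difference of -0.34, and was under the floor on the Oasl1-/- array. Cnot6, a subunit of the deadenylase complex, differed by -0.29. Elavl1, which stabilises AU-rich mRNAs and was named after its value was seen, was level at 10.24 and 10.22.

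**Figure D4:**
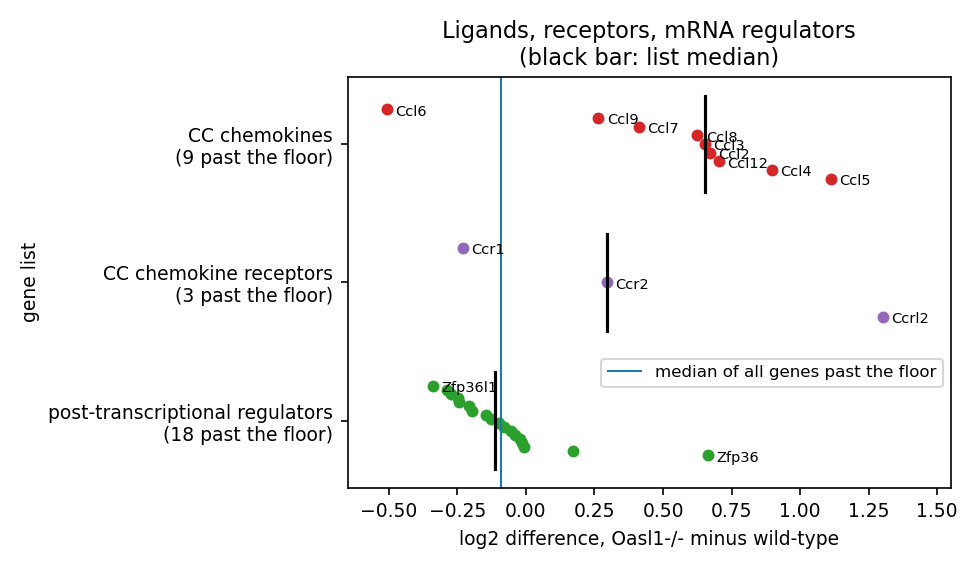
Difference, Oasl1-/- minus wild-type (horizontal axis, log2), of each gene past the floor in 3 lists (vertical axis), with list medians as black bars and the median of all genes past the floor in blue. The ligands have a median of 0.65 and the receptors one of 0.30, while the regulators, apart from Zfp36 at 0.66, lie near the median of all genes.

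Among the other genes that the annotation gives the term chemokine activity, 5 of 24 were past the floor, where 7835 of all 22088 genes were. None of these 5 is a Ccl gene. They were Cxcl9, Cxcl10, Cxcl11, Cxcl16 and Pf4, with a median of 0.55 and differences of -0.30 for Pf4, a platelet and myeloid chemokine, to 2.06 for Cxcl9, an attractant of activated T cells. In wild-type Cxcl9 read 6.58, below the floor, and Cxcl11 read 7.05, under the upper end of the intron controls, so the size of both differences is uncertain. Apart from the members, 39 genes past the floor have the broader term chemotaxis, a list that overlaps the former. Their median was -0.05, near that of all genes, and 0.04 after centring on the median gene. The highest difference among them, 1.15, is that of Cxcl11. Of the 39 genes 2 passed 2-fold upwards, Cxcl11 among them, and 0 downwards, where 1.57% and 0.651% of all genes did. With a pseudocount of 32 none passed upwards, where 1.23% of all genes did.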

How the data were processed

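Polysomal RNA of 1 wild-type and 1 Oasl1-/- sample was measured, grouped by the genotype in the labels. The files hold 35556 probe sets. Their log2 signals were deposited by the authors after processing with GCOS and RMA, which brings arrays to a shared distribution, per the submitters' processing notes. The series design text names Expression Console 1.1 and, from R, the affy package at 2.9.2. The deposited log2 ratio was the Oasl1-/- minus the wild-type signal, and the deposited fold was 2 to the power of its size, in all 35556 rows. Coordinates are those of the file (NCBIM37).

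From these, Python 3.11.15 scripts took for each of 22088 genes the probe set with the highest mean signal, and kept genes whose higher signal was at least 7. Differences of 1.5-fold and 2-fold were counted. Named were all members, and receptors and regulators past the floor (the 3 largest differences of a longer list, and Elavl1, added after its value was seen). The 3 genes nearest to the members with the highest and the lowest difference were named too. So were Oasl1, Irf7, cell type markers, other chemokine genes past the floor, genes near the members, and some Ccl genes and receptors below the floor. The members, lists and thresholds were chosen with earlier results of these data known. Alternatives covered scale, pseudocount, floor, probe set and source table. A listed receptor gene is not reported here. The calculation was tested on simulated data with upward differences planted in genes whose mean signal was well past the floor. Downward differences and genes near the floor were not covered. Precision is limited by having 1 array per genotype.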

Additional observations from a re-analysis of the deposited data

How the results depend on the processing

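No 2-fold call among the members changed. Under all 9 alternatives Ccl5 was the only member at least 2-fold higher, with differences of 1.1 to 1.20, and Ccl6 the only lower one, at -0.51 to -0.42. The median of the members was 0.65 to 0.74, and that of all genes counted was -0.09 to 0.03. The 4 rescaled versions (centring, loess, quantile normalization, pseudocount) moved the 36 member differences by at most 0.13, less than the spread over genes of 0.32. That spread is no replicate error, so this does not show how the differences would hold in further arrays. The other alternatives, of floor, probe set and table, cannot change a member's difference and say nothing about its stability. Ccl4 came closest to 2-fold, at 0.99 after centring on the median gene. Members at least 1.5-fold higher numbered 6, where 5.27% of all genes counted were. They also numbered 6 after centring (7.30% of all genes), loess (7.16%) and quantile normalization (6.64%). With a pseudocount of 32 (4.45%) or a floor of 8 (6.33%) they numbered 5. With a floor of 6 (4.62%) or none (2.90%) they numbered 7, with Ccl22 among them. Over all genes without a floor 0.625% were at least 2-fold higher, against 1.57% with a floor of 7. No paired analysis was possible because each genotype has 1 array. Receptor directions held under the 4 rescaled versions, with Ccr1 lower in each. RMA removes most of a difference common to all mRNAs, so every value is relative to other genes.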

Other observations

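Genes close to the CC chemokines were read as well. Within 100 kb of a member the annotation places 21 other gene symbols, of which 8 were past the floor. That is near the share over the whole array, where 7835 of 22088 genes were. Of these 4 lie near the block with Ccl5, 4 near Ccl22 and none near the block with Ccl2. Their differences ranged from -0.39 to 0.16. At 1.5-fold 0 of the 8 differed in either direction, near what the shares of all genes past the floor, 5.27% higher and 6.28% lower, give for so few. Near the block with Ccl5 these were Taf15, a TATA-binding protein associated factor, 19.0 kb from Ccl5 at -0.09, Gm11428, 39.4 kb from Ccl4 at -0.33, and Heatr6, 88.8 kb from Ccl4 at 0.11. The remaining probe set, named Rpl9, for a ribosomal protein gene with copies elsewhere, lies 2.22 kb from Ccl3 and differed by -0.39, and probes that match several copies cannot tell them apart.

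Near Ccl22, which was below the floor, Ciapin1 differed by 0.16, Arl2bp by -0.32, Rspry1 by -0.06 and Coq9 by -0.23. Cx3cl1, a chemokine of another class 20.5 kb from Ccl22, was below the floor at 5.27 and 5.53.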
